A study of Mus musculus with 10 samples.

Results

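Activated CD8+ T cells cultured with IL-21 and an inhibitor of lactate dehydrogenase (LDHi) were compared with activated CD8+ T cells that received neither. The members are 4 of the 10 RNA-seq libraries of the series: IL-21 + LDHi replicates 1 and 2, and no cytokine replicates 1 and 2. They were picked by their group labels, with earlier results of these data known. Every group was made from CD8+ T cells isolated from the spleens of C57BL/6N mice, activated for 48 h with plate-bound anti-CD3 and soluble anti-CD28 (2 µg/ml each), pooled, washed and cultured for a further 48 h. The no cytokine cells had medium alone in that second culture and never met the inhibitor. The IL-21 + LDHi cells had IL-21 at 100 ng/ml, and the inhibitor NCI-737 at 1 µM from activation onwards, replenished when they were replated. The groups therefore differ in the cytokine and in the inhibitor together, and the inhibitor was already there during priming. No group analysed here had the inhibitor without a cytokine, so an effect of the inhibitor on its own and one that needs IL-21 cannot be told apart. For this reason the values of IL-21 alone (100 ng/ml, 2 libraries) are given beside those of the 2 groups, and those of IL-2 + LDHi (IL-2 at 100 IU/ml, NCI-737 at 1 µM, 2 libraries) where the other cytokine is compared.

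Lactate dehydrogenase turns pyruvate into lactate, which lets an activated T cell run glycolysis fast by renewing the oxidised cofactor that glycolysis consumes. IL-21 is a cytokine of the common gamma chain family that signals through JAK1 and JAK3, mainly to STAT3, and is known for favouring less differentiated CD8+ T cells, whereas IL-2 signals mainly to STAT5 and drives growth and effector differentiation. A resting naive or central memory CD8+ T cell is recognised by lymph node homing receptors such as CCR7, by transcription factors such as TCF-1 (Tcf7), LEF-1 and KLF2, and by being out of the cell cycle. An effector cell carries granzymes, effector cytokines and factors such as T-bet (Tbx21) and Blimp-1 (Prdm1).

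The 4 libraries held between 31190910 and 41035042 reads on the transcripts kept, 1 per gene symbol, and between 15978 and 17072 genes had at least 1 read. Levels are given as RPKM, reads scaled to the length of the transcript and to the library's total, and differences as log2 fold changes of IL-21 + LDHi over no cytokine from edgeR's quasi-likelihood test, with their standard error (SE) and a Benjamini-Hochberg adjusted p over all genes tested. A gene is said to rise or fall where that adjusted p was below 0.05. The labels do not say whether the 2 replicates of a group were separate cultures, so the p-values speak only of the spread among these libraries, and that spread may be technical. Of the 12 genes listed for CD8+ T cell identity, 10 did not pass the test and 2 fell (23.6% of all genes tested fell). Without overlap in RPKM, 7 of the 12 were lower (43.9% of all genes) and none was higher. Among the 10, Cd8a, the alpha chain of the CD8 co-receptor, was at 268 and 227 RPKM without cytokine and at 202 and 210.9 RPKM in IL-21 + LDHi. Cd3e, part of the CD3 signalling complex, was at 222 and 166 against 198 and 193 RPKM. Both labelled groups thus carried the defining transcripts of CD8+ T cells. The other 2 listed genes, Cd5 (log2 fold change -1.47) and Cd2 (-0.56), fell, but the Cd2 call was lost without no cytokine replicate 1 or IL-21 + LDHi replicate 2 (adjusted p up to 0.114).

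Of 14357 genes tested, 5321 (37.1%) passed the test between IL-21 + LDHi and no cytokine, 1934 of them higher and 3387 lower. Larger changes were mostly downward: 537 genes (3.74%) rose and 2518 (17.5%) fell by at least 2-fold. In RPKM, both IL-21 + LDHi libraries lay above both no cytokine libraries for 3476 genes (24.2%) and below them for 6303 (43.9%), so groups that do not overlap are common here. RPKM lack the fit's scaling between libraries (TMM factors 1.027 and 1.0669 without cytokine, 0.98 and 0.9791 in IL-21 + LDHi). Beside the log2 fold changes they lean slightly lower in IL-21 + LDHi. On log2(RPKM + 1) with limma, 1094 genes passed higher and 3173 lower. The 2 steps in between share libraries with that comparison. IL-21 alone against no cytokine gave 1658 calls (11.5%), 811 higher and 847 lower. IL-21 + LDHi against IL-21 gave 4501 (31.4%), 1589 higher and 2912 lower. These counts rest on the IL-21 libraries as well, whose 2 replicates differed more from each other (SD of the log2 difference 0.76) than did the no cytokine (0.488) or the IL-21 + LDHi replicates (0.423). The first of these steps gave between 749 calls (without no cytokine replicate 2) and 3967 (without IL-21 replicate 1) when 1 library was left out, between 925 and 1080 without any 1 of the IL-2 or IL-2 + LDHi libraries, and 91 when fitted on its 2 groups alone. The second gave 2599 and 2453 without IL-21 + LDHi replicate 1 and replicate 2, and 2259 on its 2 groups alone. IL-21 + LDHi against no cytokine gave 3538 calls without IL-21 + LDHi replicate 1.

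RNAs kept as a sign of RNA quality moved with the groups. Of 9 nuclear and noncoding RNAs, 4 rose (13.5% of all genes did) and 1 fell (23.6%), with a median of 0.65. Their summed level was 478.1 and 478.3 RPKM without cytokine, 506.9 and 463.5 RPKM with IL-21 alone, 778.1 and 714.2 RPKM in IL-21 + LDHi and 446.8 and 431.8 RPKM in IL-2 + LDHi, so that it was highest in IL-21 + LDHi without overlap. Neat1, the RNA of nuclear paraspeckles, was at 78.4 and 81.0 against 179 and 193 RPKM (1.35, SE 0.12, adjusted p = 3.83e-05), and Malat1, a nuclear RNA, at 219.9 and 194 against 330.4 and 266 RPKM (0.65, SE 0.16). The call of the 1 that fell, Xist (-0.68, SE 0.23), was lost without any 1 of the no cytokine or IL-21 + LDHi libraries (adjusted p up to 0.176). The part of RNA quality in the changes of the gene groups described here was not tested.

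**Figure D1:**
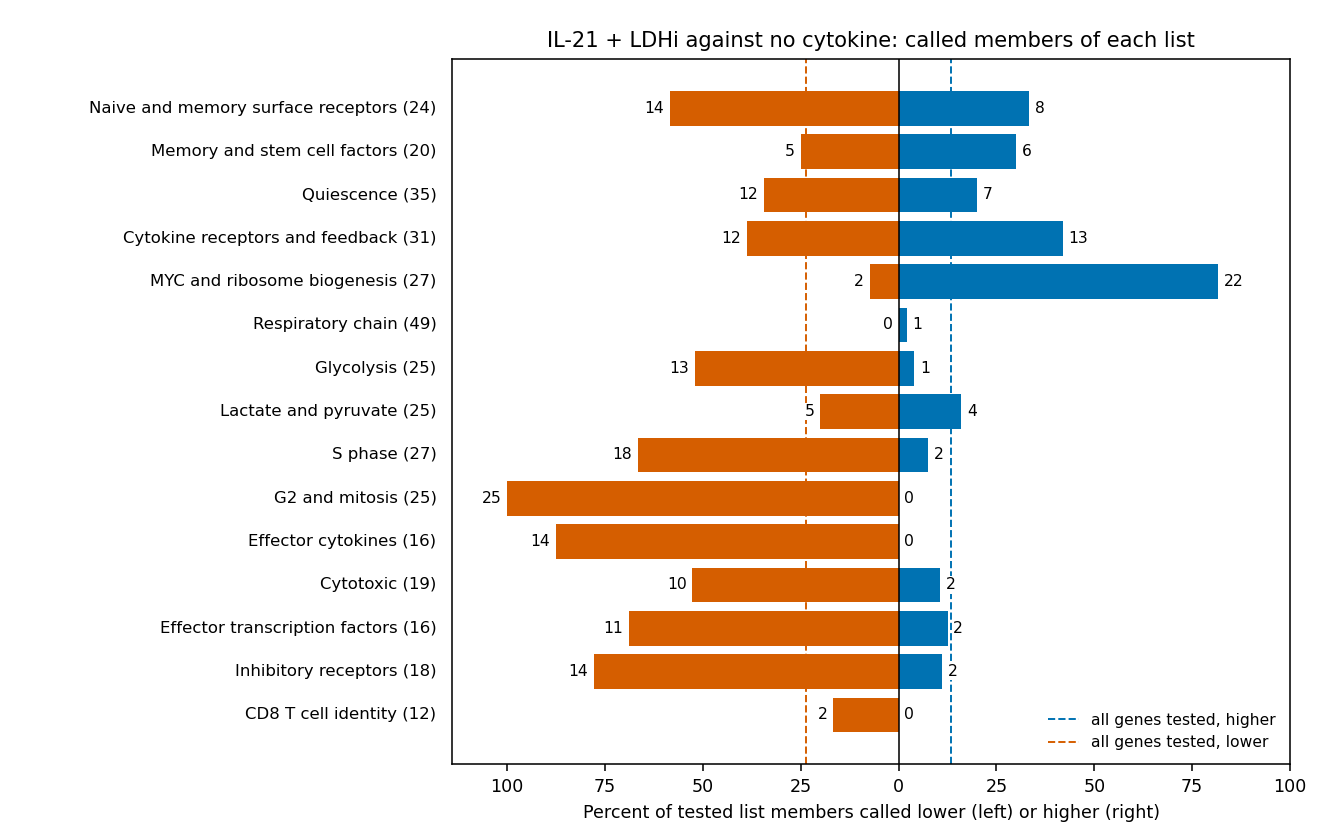
For 15 gene lists, the bars show the percent of tested members (number in brackets) called lower (orange, to the left) or higher (blue, to the right) in IL-21 + LDHi against no cytokine, with the count at the bar's end, and the dashed lines show the same percent over all genes tested (13.5% higher, 23.6% lower). The 25 G2 and mitosis genes were all called lower, 22 of 27 MYC and ribosome biogenesis genes were called higher, and the memory lists were called in both directions.

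Of the 12 genes named for the largest rise, 11 were on none of the lists. Moxd1 (chromosome 10, 24223517 to 24302783, plus strand), which encodes a monooxygenase-like protein, had 4 and 1 reads without cytokine and 5540 and 4956 reads in IL-21 + LDHi, or 0.0230 and 0.00719 against 36.6 and 32.0 RPKM. The log2 fold change was 11.13 (SE 0.28, adjusted p = 6.06e-07). Moxd1 was nearly silent in both no cytokine libraries and plainly expressed in both others, it stood at 3.01 and 2.09 RPKM in IL-21 alone, and both IL-2 + LDHi libraries listed it at 0 reads. Igfbp4 (chromosome 11, 99040005 to 99052655, plus strand), which encodes a secreted binding protein for insulin-like growth factors, was at 5.03 and 5.75 RPKM without cytokine and at 1146 and 1099 RPKM in IL-21 + LDHi (log2 fold change 7.82, SE 0.22, adjusted p = 6.06e-07). With IL-21 alone it was at 131 and 96.3 RPKM and with IL-2 + LDHi at 35.0 and 35.2 RPKM, so the IL-21 + LDHi libraries lay far above every other group shown. Against IL-21 alone it rose by a further 3.28 (SE 0.18), and against IL-2 + LDHi it was higher by 5.18 (SE 0.20, adjusted p = 2.15e-07).

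Further genes followed the same order, no cytokine lowest, IL-21 alone between, and IL-21 + LDHi highest. Ggt1, which encodes the cell-surface enzyme that starts the breakdown of extracellular glutathione, went from 1.77 and 1.19 RPKM through 30.4 and 20.6 to 100.1 and 102 RPKM (log2 fold change 6.21, SE 0.20). Ampd1, an AMP deaminase best known from muscle, was at 0.386 and 0.473 RPKM without cytokine and at 15.5 and 16.7 RPKM in IL-21 + LDHi, and only 1.53 and 1.27 RPKM in IL-21 alone (5.36, SE 0.23). The zinc transporter gene Slc30a4 (4.41, SE 0.29) and the chemokine receptor gene Cxcr1 (5.09, SE 0.28) also rose over both no cytokine and IL-21 alone. For each of these 4 genes the groups did not overlap. Gadd45g, a stress-inducible growth regulator, rose in IL-21 + LDHi (4.83, SE 0.23) and with IL-21 alone (5.05). It was at 41.8 and 56.2 RPKM in the former and at 70.7 and 42.9 RPKM in the latter, which overlap. The rows of Syt6 (8.10), Rgag4 (4.46) and Lrrc6 (4.33) complete the largest rises together with Socs3, described with the cytokine genes, and Mir147 (6.06). The Mir147 row lies inside an exon of the gene AA467197 on the same strand, and their reads cannot be told apart.

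The largest falls were of genes of other blood cells, and in bulk RNA fewer cells of a type and less RNA per cell cannot be told apart. Mcpt8, a basophil protease, was at 133 and 257 RPKM without cytokine and at 0.0730 and 0.285 RPKM in IL-21 + LDHi (log2 fold change -9.94, SE 0.50, adjusted p = 1.84e-06). Ctsg, a granule protease of myeloid cells, had 3962 reads over both no cytokine libraries and 3 over both IL-21 + LDHi libraries, a ratio per library size of 1291 (95% interval 441 to 6263, counting error only). Elane, a neutrophil protease, had 175 and 216 reads without cytokine and none in IL-21 + LDHi, which makes it at least 127-fold lower when 3 reads over the group are taken as the floor. S100a8 (104 and 100 reads against none) was at least 66.5-fold lower and S100a9 (124 and 89 against none) at least 69.4-fold. For these 5 genes the 2 groups did not overlap, and the no cytokine libraries were the higher.

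Counted over whole lists, all 11 tested basophil and mast cell markers, 8 of 9 granulocyte, 17 of 20 macrophage and myeloid, 8 of 11 red cell and platelet, 9 of 12 NK cell and 7 of 10 CD4+ T cell markers fell, against 23.6% of all genes tested. None of them rose in edgeR's test or in DESeq2, 1 myeloid marker did in limma, and 1 CD4+ T cell marker was higher at an unadjusted p below 0.05. The summed level of the basophil and mast cell list was 336 and 705 RPKM without cytokine, 111 and 144 RPKM with IL-21 alone, 2.79 and 3.91 RPKM in IL-21 + LDHi and 4.16 and 4.01 RPKM in IL-2 + LDHi. Granulocyte markers summed to 39.39 and 54.75 RPKM without cytokine and 2.383 and 2.945 RPKM in IL-21 + LDHi, where 6 of 11 (S100a8, S100a9, Camp, Ltf, Elane and Retnlg) had no read. The macrophage and myeloid list stood at 374.5 and 453.3 against 147.6 and 121.6 RPKM. Cells cultured with IL-2 and no inhibitor (2 libraries) were low in these transcripts too: the basophil and mast cell list summed to 7.34 and 7.72 RPKM there, the granulocyte list to 2.92 and 3.11 RPKM and the macrophage and myeloid list to 105.6 and 116 RPKM. The 3 sums were thus highest without cytokine, with replicate 2 the higher of that pair, lower with IL-21 alone (granulocyte 14.8 and 26.2 RPKM, macrophage and myeloid 234 and 191 RPKM), and lowest in the groups given IL-2 or the inhibitor. NK cell markers, several of which activated CD8+ T cells also express, went the other way with IL-21 alone: 108.8 and 120.8 RPKM without cytokine, 469.8 and 356.9 RPKM in IL-21, and 22.39 and 21.74 RPKM in IL-21 + LDHi. The 10 tested B cell markers gave no call in edgeR's test, DESeq2 or limma, and none at an unadjusted p below 0.05. Their sum was high in replicate 1 and low in replicate 2 of both groups (23.54 and 10.47 against 22.69 and 7.497 RPKM). Genes that myeloid cells share with T cells are among the falls described below, and the part that other cells play in them was not tested. In IL-21 + LDHi against IL-2 + LDHi none of the tested basophil, granulocyte, red cell or platelet markers was lower, in edgeR's test (also at an unadjusted p below 0.05), in DESeq2 or in limma.

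**Figure D2:**
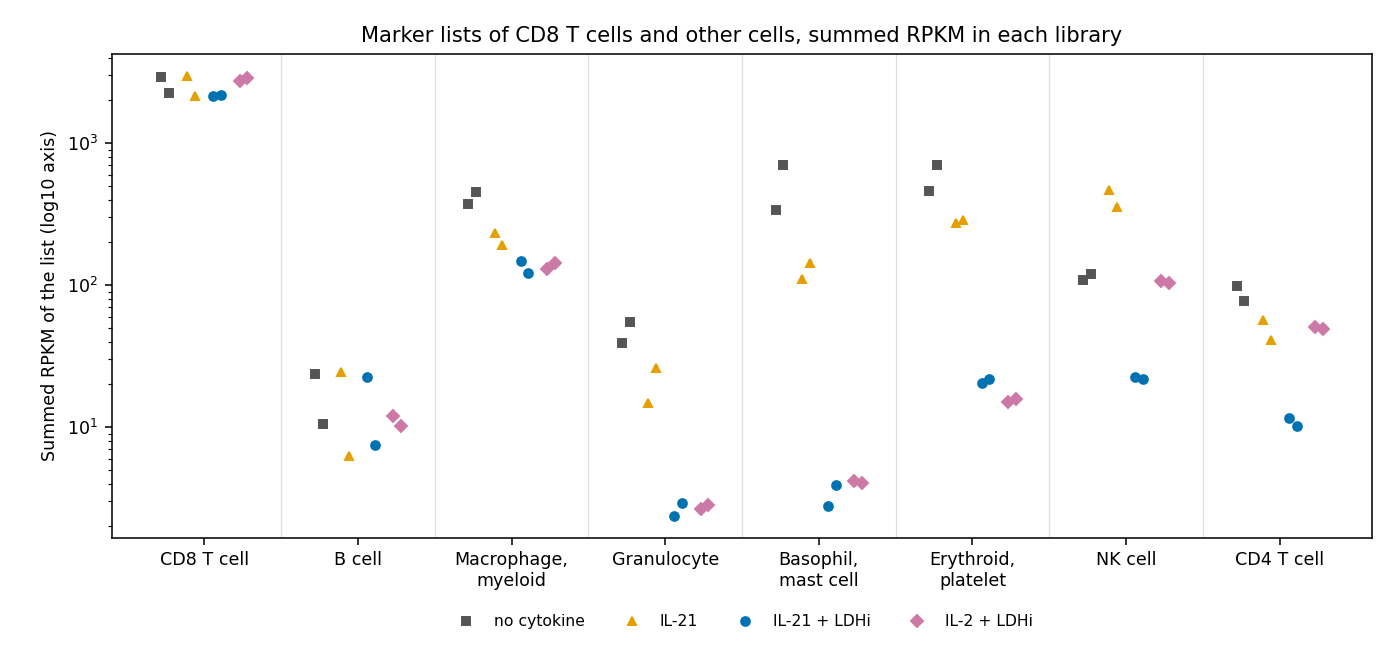
Summed RPKM of each marker list (log10 axis) in every library of no cytokine (grey squares), IL-21 (orange triangles), IL-21 + LDHi (blue circles) and IL-2 + LDHi (pink diamonds), 2 points a group. The CD8 T cell list lies between 2142 and 2983 RPKM in all 8 libraries, while the basophil and mast cell list drops from 336 and 705 RPKM without cytokine to 2.79 and 3.91 RPKM in IL-21 + LDHi.

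Surface receptors of naive and memory cells changed in both directions, more of them downward. Of 24 tested, 8 rose (13.5% of all genes did) and 14 fell (23.6%), and the list's median was -1.01 (-0.01 over all genes). Ccr7, which guides cells into lymph nodes (chromosome 11, 99144199 to 99155077, minus strand), was at 139.7 and 99.4 RPKM without cytokine and at 334 and 324 RPKM in IL-21 + LDHi (log2 fold change 1.59, SE 0.22, adjusted p = 0.000502). The IL-21 + LDHi libraries were the higher without overlap, and the IL-21 libraries (141 and 72.4 RPKM) overlapped those without cytokine. S1pr1, the receptor that lets T cells leave lymphoid organs, also rose (0.93, SE 0.19), though not past a minimum of 1.5-fold.

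Both chains of the IL-6 receptor rose. Il6ra, the chain that binds IL-6, was at 17.0 and 20.1 RPKM without cytokine and at 64.0 and 65.3 RPKM in IL-21 + LDHi (1.92, SE 0.19, adjusted p = 7.48e-05). Il6st, which encodes the shared signalling chain gp130, was at 37.8 and 39.2 against 106 and 114 RPKM (1.63, SE 0.12, adjusted p = 1.3e-05). Neither chain passed the test with IL-21 alone (0.38 and -0.04), and both rose in IL-21 + LDHi against IL-21 (1.54 and 1.68). Ly6a, which encodes the stem cell antigen Sca-1, had another course: it was at 79.6 and 66.8 RPKM without cytokine, 591 and 373 RPKM with IL-21 alone and 404 and 437 RPKM in IL-21 + LDHi (2.65, SE 0.15). Its level in IL-21 + LDHi lay between the 2 IL-21 libraries.

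The receptors that fell include several that are usually counted as memory markers. Cd44, an adhesion receptor that marks antigen-experienced cells, was at 20.6 and 19.1 RPKM without cytokine and at 1.59 and 1.499 RPKM in IL-21 + LDHi (-3.56, SE 0.14, adjusted p = 7.14e-07), and at 15.4 and 15.8 RPKM with IL-21 alone. Cxcr3, the chemokine receptor that takes T cells to inflamed tissue, was at 105 and 57.9 against 4.14 and 4.95 RPKM (-4.04, SE 0.29). Both genes were low only in IL-21 + LDHi among the 4 groups shown, and both were lower there than in IL-2 + LDHi (-3.24 and -3.62). Itgae, the integrin chain CD103 of tissue-resident cells (-2.74, SE 0.18), Cxcr5 (-3.65, SE 0.25), the co-stimulatory receptor gene Cd28 (-2.69, SE 0.20) and Ly6c2 (-2.96, SE 0.22) fell as well. Il7r, whose product receives the survival cytokine IL-7, was at 147 and 188 against 95.2 and 76.8 RPKM (-0.84, SE 0.18, adjusted p = 0.00507). That call was lost without IL-21 + LDHi replicate 2 (adjusted p = 0.0555). Cd27 (-0.96) and Slamf6 (-1.05) were lower without overlap too.

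**Figure D3:**
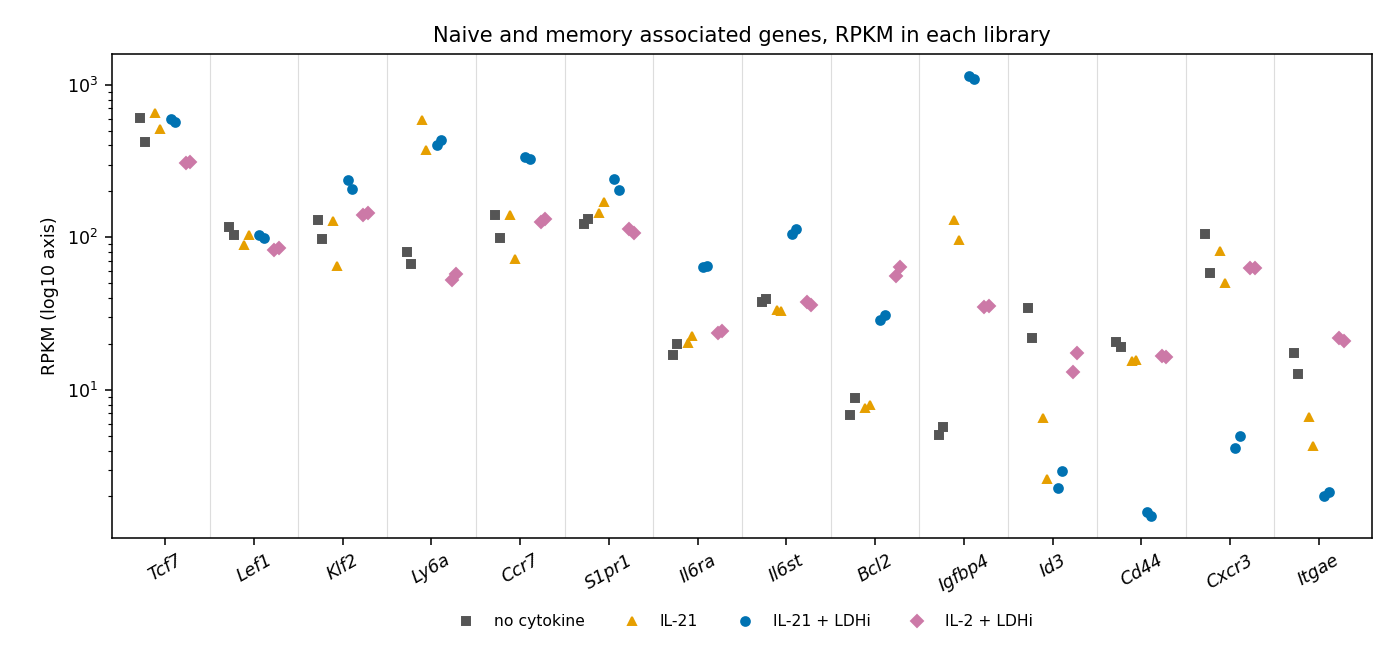
RPKM of 14 naive and memory associated genes (log10 axis) in each library of no cytokine (grey squares), IL-21 (orange triangles), IL-21 + LDHi (blue circles) and IL-2 + LDHi (pink diamonds). Tcf7 and Lef1 show no cytokine, IL-21 and IL-21 + LDHi close together, with IL-2 + LDHi the lowest group, Ccr7, Il6ra and Il6st show the IL-21 + LDHi libraries on top, Igfbp4 runs from 5.03 and 5.75 RPKM without cytokine to 1146 and 1099 RPKM in IL-21 + LDHi, and Cd44 and Cxcr3 show the IL-21 + LDHi libraries at the bottom.

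The transcription factors that hold naive and memory cells in their state gave few large rises. Of 20 tested, 6 rose (13.5% of all genes) and 5 fell (23.6%), and the median was 0.03, so the share that fell was near that of all genes. Tcf7, the gene of TCF-1, was at 602 and 424 RPKM without cytokine and at 594 and 573 RPKM in IL-21 + LDHi (0.31, SE 0.16, adjusted p = 0.163), and the groups overlapped. Lef1, at 116 and 104 against 104 and 98.7 RPKM, gave 0.00 (SE 0.16), Foxo1 gave 0.06 (SE 0.11) and Satb1 -0.05 (SE 0.11), so these 4 genes did not pass the test. Klf2, the factor that switches on S1pr1, went from a mean of 114 RPKM (SD 22.6, n = 2) to 221 RPKM (SD 20.3, n = 2) without overlap (log2 fold change 1.08, SE 0.21, adjusted p = 0.00366). Bcl6, a repressor opposed to Blimp-1, was at 6.10 and 6.08 against 10.8 and 10.8 RPKM (0.95, SE 0.13), and it was at 13.1 and 13.4 RPKM with IL-21 alone. Stat3 (0.80), Bach2 (0.50), Klf3 (0.66) and Ikzf1 (0.38) make up the rest of those that rose. Without IL-21 + LDHi replicate 2 the calls of Bach2 (adjusted p = 0.0673), Klf3 and Ikzf1 were lost, the latter pair also without other libraries (adjusted p up to 0.182 and 0.108). Stat3 shares exonic bases with Stat5a on the other strand. Without IL-21 + LDHi replicate 2 the count of rising factors was 3 in place of 6, and 2 with a minimum of 1.5-fold.

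Among the 5 that fell were Myb and Id3, which have roles in memory and stem-like CD8+ T cells. Myb was at 116 and 98.1 RPKM without cytokine, 18.9 and 22.3 RPKM with IL-21 alone and 1.82 and 1.98 RPKM in IL-21 + LDHi (-5.69, SE 0.21, adjusted p = 6.15e-07). It fell at each step and without overlap. Id3, an inhibitor of E proteins, was at 34.4 and 21.8 against 2.29 and 2.93 RPKM (-3.30, SE 0.36). Eomes, which takes part in both effector and memory programmes, was at 22.9 and 17.7 against 11.0 and 10.8 RPKM (-0.78, SE 0.14).

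Genes listed for quiescence and growth restraint moved both ways: of 35 tested, 7 rose (13.5% of all genes) and 12 fell (23.6%), and the median was -0.06. Tsc22d3, which encodes the glucocorticoid-induced leucine zipper, was at 27.0 and 28.7 RPKM without cytokine and at 104 and 80.9 RPKM in IL-21 + LDHi (1.86, SE 0.17, adjusted p = 4.49e-05). Cdkn2d, an inhibitor of the G1 kinases CDK4 and CDK6, was at 47.0 and 37.0 against 88.6 and 105 RPKM (1.33, SE 0.25). Btg1, an antiproliferative gene, rose by less (0.86, SE 0.15). Each of the 3 was higher in both IL-21 + LDHi libraries. Cdkn1b, which encodes p27 and is a main brake of resting T cells, did not pass the test at 56.9 and 59.4 against 46.8 and 36.2 RPKM (-0.36, SE 0.22, adjusted p = 0.23). Pdcd4 (-1.14, SE 0.12), Btg2 (-0.84, SE 0.12), Rb1 (-1.10, SE 0.23) and Cdkn2c (-1.79, SE 0.27), all restraints on growth or on the cell cycle, fell, and Cdkn1a, which encodes p21, fell by 2.99 (SE 0.31). With a minimum of 1.5-fold, 3 of the list rose and 6 fell.

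All 25 genes listed for G2 and mitosis fell (23.6% of all genes did), each in every alternative setting and with either replicate left out, with a median of -3.93. Mki67, the proliferation marker Ki-67, was at 35.4 and 33.1 RPKM without cytokine and at 1.24 and 1.39 RPKM in IL-21 + LDHi (-4.58, SE 0.16, adjusted p = 6.06e-07). Ccnb2, a mitotic cyclin, was at 20.5 and 16.3 against 0.727 and 0.854 RPKM (-4.42, SE 0.18), and its kinase Cdk1 at 8.27 and 8.68 against 0.363 and 0.376 RPKM (-4.39, SE 0.20). The groups lay more than an order of magnitude apart for these 3 genes. The smallest fall on the list was that of Cenpa, a centromeric histone, at -1.93 (SE 0.24). With IL-21 alone, 15 of the 25 rose over no cytokine (5.65% of all genes) and none fell (5.9% of all genes; also none at an unadjusted p below 0.05, in DESeq2 or in limma), and Mki67 was at 50.4 and 51.2 RPKM. In IL-21 + LDHi against IL-21 all 25 fell (20.3% of all genes did). In IL-21 + LDHi against IL-2 + LDHi all 25 fell as well (16.7% of all genes), where Mki67 was at 116 and 117 RPKM. Both groups of that last pair had the inhibitor.

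For 2 of the G2 and mitosis genes the bases before the start sites are shown, with those of Moxd1, the gene that rose most. CCAAT boxes are bound by NF-Y, and TTTGAA is a core of the cell cycle homology region through which the DREAM complex holds mitotic genes silent in resting cells. TTCNNNGAA is the half-site pair that STAT proteins recognise. The letters are from RefSeq on GRCm38.p6 (the build the files call mm10), 5′ to 3′ on the gene's strand, from 250 bases before the start site up to the base before it, and capitals mark every match on either strand: CCAAT in Ccnb2 and Moxd1, its reverse complement ATTGG in Cdk1, TTTGAA in Ccnb2 and Cdk1, and TTCNNNGAA in Moxd1. The windows are chr9:70421555-70421804 (minus strand) for Ccnb2, chr10:69352913-69353162 (minus strand) for Cdk1 and chr10:24223267-24223516 (plus strand) for Moxd1.
Ccnb2: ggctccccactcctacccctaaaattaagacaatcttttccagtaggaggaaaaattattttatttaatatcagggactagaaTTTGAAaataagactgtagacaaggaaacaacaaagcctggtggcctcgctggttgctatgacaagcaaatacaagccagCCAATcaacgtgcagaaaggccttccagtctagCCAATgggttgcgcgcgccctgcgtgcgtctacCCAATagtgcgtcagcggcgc
Cdk1: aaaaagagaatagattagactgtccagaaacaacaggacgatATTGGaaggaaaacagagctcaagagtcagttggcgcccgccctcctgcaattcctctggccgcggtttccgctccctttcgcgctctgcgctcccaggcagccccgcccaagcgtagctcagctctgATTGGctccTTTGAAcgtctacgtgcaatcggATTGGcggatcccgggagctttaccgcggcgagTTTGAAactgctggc
Moxd1: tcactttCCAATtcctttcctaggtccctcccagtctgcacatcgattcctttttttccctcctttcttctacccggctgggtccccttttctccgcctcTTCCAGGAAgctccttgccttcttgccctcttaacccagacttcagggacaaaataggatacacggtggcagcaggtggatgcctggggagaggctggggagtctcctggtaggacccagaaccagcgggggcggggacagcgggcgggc
In either direction, CCAAT stood at -87, -54 and -21 in Ccnb2, at -208, -80 and -48 in Cdk1 and at -243 in Moxd1, and TTTGAA at -167 in Ccnb2 and at -71 and -15 in Cdk1, counted from the start site to the first base of the match. Of the 25 G2 and mitosis genes 19 had a window, and 17 of these 19 windows held CCAAT on either strand (89.47%), against 11120 of 32851 windows of the same length over all genes (33.85%). TTTGAA, searched on both strands, was in 7 of the 19 (36.84%) and in 15.99% of all windows. In Ccnb2 the TTTGAA match lay upstream of every CCAAT match, and in Cdk1 the match at -15 lay downstream of every one. The windows end before the start site, so matches at or after it were not counted. Whether a TTTGAA match is a working element was not tested. CCAAT was also in 15 of the 22 windows of the DNA replication list (68.18%), whose genes fell less evenly. It was in 24% of the MYC and ribosome biogenesis windows and in 32.26% of the cytokine signalling windows. For TTTGAA the DNA replication, MYC and cytokine lists gave 9.09%, 24% and 22.58%. The STAT pattern of Moxd1, TTCCAGGAA, lay at -150. TTCNNNGAA, which reads the same pattern on both strands, was in 4 of the 31 windows of the cytokine signalling list described further on (12.9%), in 4 of the 25 windows of the MYC and ribosome biogenesis list (16%) and in 7.02% of all windows. The motifs share no bases with each other in the windows shown, and a match describes these letters only. All 25 G2 and mitosis genes fell, so their shares cannot set genes that fell against genes that did not. They would be the same whatever these libraries held, and a part of the motifs in the changes was not tested.

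Genes of DNA replication fell less evenly: 18 of 27 fell (23.6% of all genes) and 2 rose (13.5%), with a median of -0.92. Rrm2, the regulated subunit of ribonucleotide reductase, was at 14.3 and 13.9 RPKM without cytokine and at 1.22 and 0.979 RPKM in IL-21 + LDHi (-3.55, SE 0.20), and the replication factor gene Mcm10 at 2.60 and 3.32 against 0.111 and 0.160 RPKM (-4.32, SE 0.21). Pcna, the sliding clamp, was at 76.0 and 94.0 against 93.4 and 87.8 RPKM (0.21, SE 0.16, adjusted p = 0.333), with overlapping groups. Ccne1, the cyclin of the G1 to S step, was at 6.01 and 5.78 against 8.54 and 11.0 RPKM and rose (0.85, SE 0.15), a call that did not hold with a minimum of 1.5-fold, and the helicase subunit gene Mcm4 rose by 0.41 (SE 0.12), a call lost without no cytokine replicate 1 or any 1 of 4 inhibitor libraries (adjusted p up to 0.147). The list thus held both replication genes that fell and some that did not. Of 17 G1 cyclins, kinases and kinase inhibitors, 7 fell (41.18%, against 23.6% of all genes) and 2 rose (11.76%, near the 13.5% of all genes). The median was -0.76. The kinase genes Cdk6, at 7.31 and 8.13 against 2.62 and 3.24 RPKM (-1.27, SE 0.16), and Cdk2 (-0.76, SE 0.10) were among the falls. The rises were Cdkn2d, given above, and the factor gene E2f2 (0.73, SE 0.19), whose call was lost without no cytokine replicate 2 or IL-21 + LDHi replicate 2 (adjusted p up to 0.104).

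Genes of ribosome biogenesis went the other way from the mitotic genes. Of 27 tested in the MYC and ribosome biogenesis list, 22 rose (13.5% of all genes) and 2 fell (23.6%), with a median of 0.89. Between 21 and 22 rose when any 1 library was left out, and 15 with a minimum of 1.5-fold. Rrp1b, a nucleolar protein gene, was at 5.60 and 5.40 RPKM without cytokine and at 23.6 and 25.5 RPKM in IL-21 + LDHi (2.28, SE 0.13, adjusted p = 2.58e-06). Odc1, which starts polyamine synthesis, was at 30.1 and 28.9 against 114 and 131 RPKM (2.17, SE 0.15), and Polr1b, a subunit of RNA polymerase I, at 6.19 and 6.23 against 14.1 and 15.9 RPKM (1.39, SE 0.12). All 3 were clear of the no cytokine libraries. Myc itself was at 28.0 and 29.2 against 48.6 and 50.1 RPKM (0.91, SE 0.15, adjusted p = 0.00114) and at 44.0 and 49.4 RPKM with IL-21 alone. The 2 that fell were Mycn (-3.31) and Wdr12 (-1.0), and the abundant nucleolar gene Npm1 did not pass the test (0.14, SE 0.18). With IL-21 alone 12 of the list rose (5.65% of all genes) and 1 fell, in IL-21 + LDHi against IL-21 15 rose (11.1% of all genes) and 1 fell, and against IL-2 + LDHi 7 rose (9.39%) and 1 fell.

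**Figure D4:**
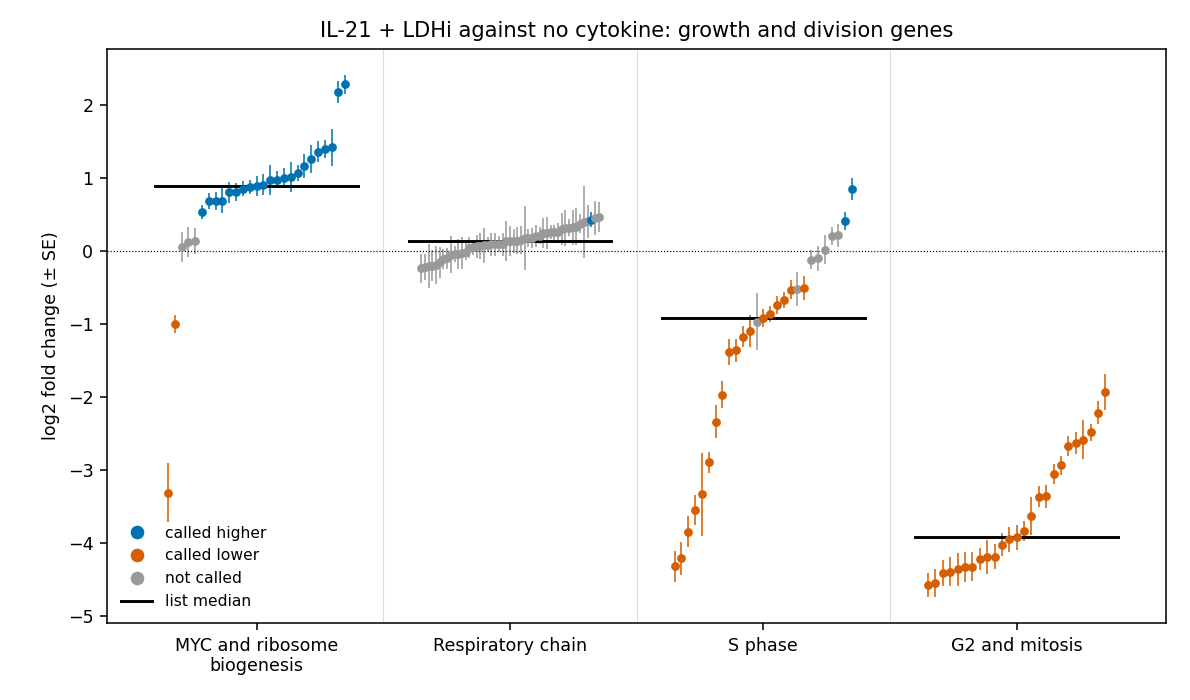
Log2 fold change of IL-21 + LDHi over no cytokine for each tested gene of 4 lists, ordered within the list, with bars for the standard error, blue for called higher, orange for called lower and grey for not called, and a black line at the list's median. The MYC and ribosome biogenesis genes lie mostly above 0 (median 0.89), the respiratory chain genes near 0 (median 0.13), and all G2 and mitosis genes below 0 (median -3.93).

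Genes of cytokine signalling changed in both directions. Of 31 tested, 13 rose (13.5% of all genes) and 12 fell (23.6%), with a median of -0.25. Socs3, the feedback inhibitor induced by STAT3 (chromosome 11, 117966079 to 117970336, minus strand), was at 16.1 and 16.3 RPKM without cytokine, 213.99 and 134 RPKM with IL-21 alone and 226 and 277 RPKM in IL-21 + LDHi (4.08, SE 0.17, adjusted p = 8.93e-07). Bcl3, a nuclear partner of NF-kappaB, was at 8.60 and 6.54 against 41.4 and 49.8 RPKM (2.71, SE 0.17), and Pim1, a kinase gene under STAT control, at 47.3 and 41.7 against 188 and 182 RPKM (2.18, SE 0.11). In all 3 the IL-21 + LDHi libraries were well above those without cytokine, and the differences from IL-2 + LDHi passed the test as well (3.78, 3.56 and 1.30). The receptor itself, Il21r, was at 37.3 and 28.7 against 121 and 135 RPKM (2.08, SE 0.13), and its partner kinase Jak3 rose too (1.42, SE 0.21), though an exon of Jak3 overlaps Insl3 on the same strand and their reads there cannot be told apart.

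Cish, Socs2 and Il2ra, known to be induced through STAT5, fell. Cish, a feedback inhibitor of IL-2 signalling, was at 2.13 and 2.41 RPKM without cytokine, 6.66 and 3.23 RPKM with IL-21 alone, 38.4 and 38.7 RPKM in IL-2 + LDHi and 0.321 and 0.480 RPKM in IL-21 + LDHi (-2.38, SE 0.29, adjusted p = 0.000209). Socs2 was at 1.75 and 2.28 against 0.156 and 0.287 RPKM (-3.05, SE 0.26), and Il2ra, whose product gives the IL-2 receptor its high affinity, at 8.20 and 6.81 against 1.60 and 2.14 RPKM (-1.88, SE 0.34). For each of the 3 the IL-21 + LDHi libraries were the lowest of the 4 groups shown. The receptor genes Il12rb1 (-3.28), Il12rb2 (-1.72) and Il2rb (-1.14) fell with them, of which the Il2rb call was lost without no cytokine replicate 1 or IL-21 + LDHi replicate 1 (adjusted p up to 0.0677). Il12rb2 overlaps the abundant Serbp1 on the other strand.

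In each of the 3 effector lists more genes fell than rose. Of 19 cytotoxic genes tested 10 fell, 2 rose and 7 did not pass the test, of 16 effector transcription factors 11 fell, 2 rose and 3 did not pass, and of 16 effector cytokines 14 fell and 2 did not pass (23.6% of all genes fell and 13.5% rose). No effector cytokine rose in edgeR's test, at an unadjusted p below 0.05, in DESeq2 or in limma. Gzmb, the gene of granzyme B, was at 22.2 and 13.3 RPKM without cytokine and at 2.22 and 1.65 RPKM in IL-21 + LDHi (-3.08, SE 0.27, adjusted p = 3.14e-05). With IL-21 alone it was at 672 and 692 RPKM, a rise of 5.43 over no cytokine, and IL-21 + LDHi was lower than IL-21 by 8.51 (SE 0.33). Ifng, which encodes interferon gamma, was at 1.40 and 1.01 RPKM without cytokine, 25.5 and 18.4 RPKM with IL-21 alone and 0.507 and 0.281 RPKM in IL-21 + LDHi (-1.49, SE 0.29). For both genes IL-21 alone was the highest and IL-21 + LDHi the lowest of these 3 groups, without overlap. Over the cytotoxic list, IL-21 alone gave 13 rises (5.65% of all genes) and 1 fall, and IL-21 + LDHi against IL-21 gave 16 falls (20.3% of all genes) and no rise (none at an unadjusted p below 0.05, in DESeq2 or in limma).

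The pore-forming protein of the same granules behaved differently. Prf1, the gene of perforin, was at 11.9 and 10.3 RPKM without cytokine, 33.4 and 28.9 RPKM with IL-21 alone and 28.6 and 30.9 RPKM in IL-21 + LDHi (1.55, SE 0.11, adjusted p = 9.75e-06). It thus rose without overlap in IL-21 + LDHi, where Gzmb fell, and its levels with and without the inhibitor overlapped (-0.10, SE 0.11). Ctsw, a cathepsin of cytotoxic cells, was the other riser (1.34). Gzma, at 13.4 and 6.21 against 5.64 and 4.47 RPKM, did not pass the test (-0.83, SE 0.40, adjusted p = 0.137). Klrk1, which encodes the activating receptor NKG2D, fell (-4.45, SE 0.17).

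Among the effector transcription factors, Tbx21 was at 12.4 and 7.75 RPKM without cytokine and at 0.870 and 1.35 RPKM in IL-21 + LDHi (-3.06, SE 0.26, adjusted p = 2.65e-05), and Irf4, induced by T cell receptor signals, at 5.24 and 4.11 against 0.553 and 0.362 RPKM (-3.23, SE 0.21). Prdm1, low throughout, was at 0.98 and 0.883 against 0.230 and 0.198 RPKM (-2.00, SE 0.20). These factors were lowest in IL-21 + LDHi. Runx3, the factor of the CD8 lineage (1.01, SE 0.16), and Id2 (1.03, SE 0.24), which favours effector over memory precursors, rose, at 37.0 and 25.5 against 56.5 and 59.1 RPKM and at 50.4 and 45.1 against 107 and 72.1 RPKM. The Id2 call was lost without IL-21 + LDHi replicate 1 or no cytokine replicate 2 (adjusted p up to 0.077). Of the cytokines, Tnf (-3.29, SE 0.26), Lta (-3.06, SE 0.16) and the chemokine gene Ccl5 (-2.48, SE 0.33) fell. Il4 (-5.84), which basophils also make, fell beside the basophil markers.

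Inhibitory receptors, which mark activated and exhausted cells, were low as well: 14 of 18 fell (23.6% of all genes) and 2 rose, 1 without IL-21 + LDHi replicate 2. Ctla4 was at 69.7 and 51.3 RPKM without cytokine and at 1.10 and 0.650 RPKM in IL-21 + LDHi (-5.99, SE 0.27, adjusted p = 1.1e-06). Pdcd1, the gene of PD-1, was at 1.65 and 1.34 against 0.348 and 0.424 RPKM (-1.83, SE 0.28) and at 7.30 and 3.65 RPKM with IL-21 alone. Lag3 was at 8.82 and 5.08 against 2.29 and 1.29 RPKM (-1.83, SE 0.31). No group overlapped with the other in these 3 genes. When only genes of at least 5 RPKM in 2 samples were tested, 9 of the list fell against no cytokine. Btla, an inhibitory receptor that naive cells also carry, was at 11.6 and 15.7 against 40.3 and 35.7 RPKM and rose (1.59, SE 0.22), as it did with IL-21 alone (1.80). In IL-21 + LDHi against IL-21, 15 of the 18 fell (20.3% of all genes did) and 2 rose (11.1%, the share of all genes).

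**Figure D5:**
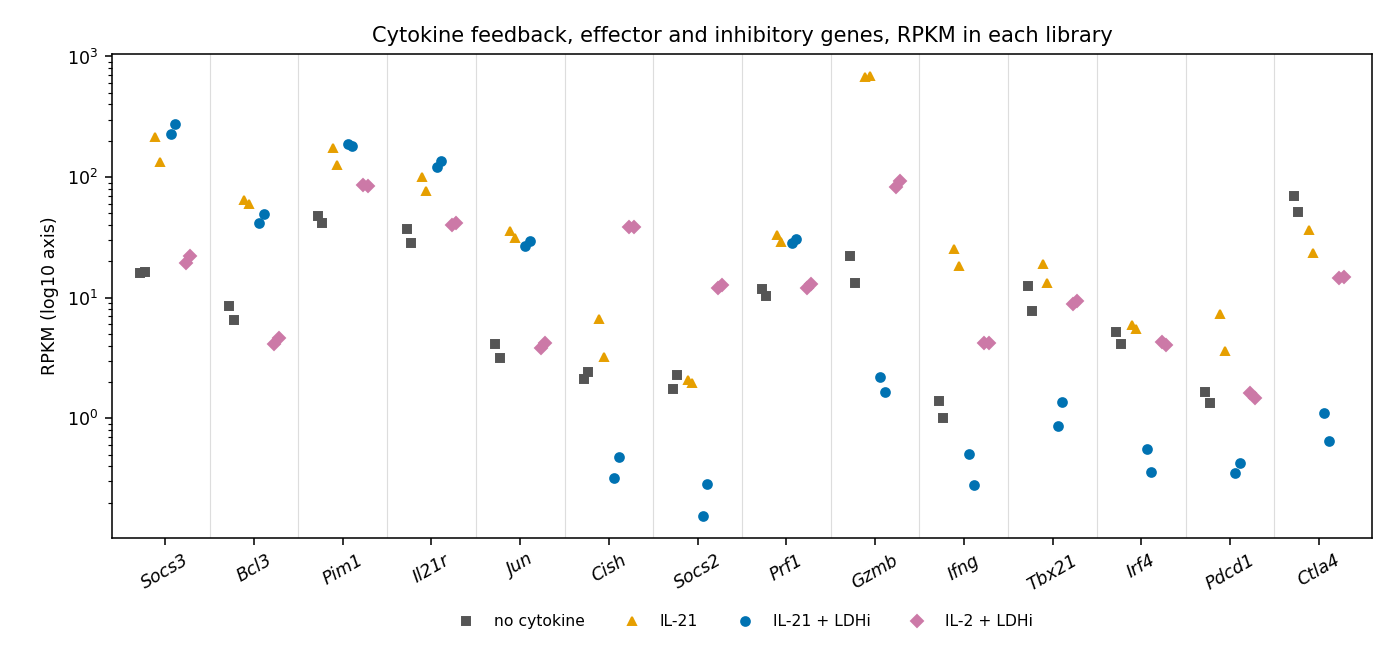
RPKM of 14 cytokine feedback, effector and inhibitory genes (log10 axis) in each library of no cytokine (grey squares), IL-21 (orange triangles), IL-21 + LDHi (blue circles) and IL-2 + LDHi (pink diamonds). Socs3, Bcl3, Pim1, Il21r, Jun and Prf1 show the IL-21 + LDHi libraries above those without cytokine, while Gzmb and Ifng show IL-21 on top and IL-21 + LDHi at the bottom.

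Of 18 genes tested in the list of immediate early and heat shock genes, 6 rose (13.5% of all genes) and 8 fell (23.6%), with a median of -0.54. Jun, a subunit of AP-1, was at 4.10 and 3.14 RPKM without cytokine, 36.0 and 31.4 RPKM with IL-21 alone and 27.0 and 29.3 RPKM in IL-21 + LDHi (3.08, SE 0.16, adjusted p = 1.84e-06). Junb rose too (1.49, SE 0.18). Egr1, Egr2 and Nr4a1, induced by T cell receptor signals, fell by 3.77 (SE 0.31), 3.86 (SE 0.26) and 4.02 (SE 0.22). Most falls of the list were of genes at low levels: 1 fell when only genes of at least 5 RPKM in 2 samples were tested. Nr4a1, for one, was at 2.84 and 2.94 RPKM without cytokine, 3.61 and 2.40 RPKM with IL-21 alone and 0.156 and 0.169 RPKM in IL-21 + LDHi. Between IL-21 + LDHi and IL-21, Jun did not pass the test (-0.29, SE 0.14), and Nr4a1 fell by 4.21 (SE 0.22).

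Of the survival genes, Bcl2 stood out, at 6.87 and 8.85 RPKM without cytokine, 7.57 and 7.97 RPKM with IL-21 alone and 28.8 and 30.7 RPKM in IL-21 + LDHi (2.04, SE 0.17, adjusted p = 2.34e-05). It was also high in IL-2 + LDHi, at 55.4 and 63.8 RPKM, so that both inhibitor groups exceeded those without it shown here. Mcl1 rose by 0.54 (SE 0.10). Bcl2l1, the gene of BCL-XL, was at 6.78 and 7.57 against 2.47 and 2.99 RPKM (-1.27, SE 0.14). The rows Bcl2a1a, Bcl2a1b and Bcl2a1d fell by 4.12, 3.06 and 3.88, but they are near-identical copies whose reads may be split between them. Of 19 genes of the BCL2 and survival list tested, 2 rose (13.5% of all genes) and 6 fell (23.6%), shares near those of all genes.

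Of the RNAs of the inhibitor's target, that of the main subunit did not pass the test. Ldha, which encodes the main subunit of the T cell enzyme, was at 220.3 and 208.7 RPKM without cytokine and at 172 and 177 RPKM in IL-21 + LDHi (-0.17, SE 0.17, adjusted p = 0.461). In RPKM its IL-21 + LDHi libraries were the lower without overlap, as were those of 43.9% of all genes. Ldhb, the other subunit, was far lower, at 3.75 and 3.14 against 5.21 and 6.66 RPKM (0.90, SE 0.24, adjusted p = 0.015), a call that was lost without no cytokine replicate 2 and without IL-21 + LDHi replicate 2 (adjusted p up to 0.115). The 2 lactate transporters went opposite ways: Slc16a3 (MCT4), the exporter of glycolytic cells, was at 2.63 and 3.47 against 0.156 and 0.185 RPKM (-4.03, SE 0.41, adjusted p = 8.31e-05), and Slc16a1 (MCT1) at 9.03 and 10.6 against 16.7 and 16.0 RPKM (0.86, SE 0.12, adjusted p = 0.000418). Neither pair overlapped. Of 25 lactate and pyruvate genes tested 4 rose (13.5% of all genes) and 5 fell (23.6%), shares near those of all genes. Without IL-21 + LDHi replicate 2, 2 rose and 3 fell, and 3 fell also without replicate 1 of either group.

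In glycolysis, 13 of 25 genes fell (23.6% of all genes) and 1 rose, with a median of -0.54. The inducible hexokinase gene Hk2 was at 1.93 and 2.79 RPKM without cytokine and at 0.303 and 0.322 RPKM in IL-21 + LDHi (-2.79, SE 0.33, adjusted p = 0.000201). Gapdh was at 459 and 429 against 281 and 279 RPKM (-0.54, SE 0.11), and the glucose transporter gene Slc2a1 (GLUT1) at 9.21 and 7.58 against 9.86 and 11.6 RPKM did not pass the test (0.48, SE 0.25, adjusted p = 0.166). The falls were thus mostly small: 4 of the 13 held with a minimum of 1.5-fold, and 8 and 7 fell without IL-21 + LDHi replicate 1 and replicate 2. Of 49 genes of the respiratory chain, 1 was called (Ndufs1, 0.42, SE 0.10, lost without no cytokine replicate 1 or IL-21 + LDHi replicate 1 with an adjusted p up to 0.076), and the median was 0.13. Without IL-21 replicate 2, however, 11 of the 49 rose, and 10 without IL-21 replicate 1. Of 19 genes of the citric acid cycle 3 rose (13.5% of all genes) and 2 fell (23.6%), and none fell without IL-21 + LDHi replicate 1.

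In the remaining lists the shares are read against 23.6% of all genes that fell and 13.5% that rose. Of 35 interferon-stimulated genes 16 fell and 2 rose, with a median of -0.43. Of 32 genes of the amino acid response driven by ATF4, 13 fell and 5 rose, of 21 targets of HIF 6 fell and 4 rose, of 23 cholesterol synthesis genes 7 fell and 1 rose, and of 19 genes of fatty acid oxidation 5 fell and 1 rose. The HIF, cholesterol and fatty acid oxidation lists held falls at 28.57%, 30.43% and 26.32%, near the share of all genes. When 1 library was left out, the cholesterol count ranged from 0 to 10 falls and the ATF4 count from 8 to 15, the lowest of both without IL-21 + LDHi replicate 1. The count for fatty acid oxidation ranged from 1 to 7 falls and that for HIF from 2 to 4 rises, the lowest of both without IL-21 + LDHi replicate 2. Of 26 chemokine receptor and adhesion genes 12 fell and 6 rose. Among the latter was Cxcr6, a receptor of tissue-homing and memory cells, at 37.0 and 45.0 RPKM without cytokine and 177 and 149 RPKM in IL-21 + LDHi (2.11, SE 0.15, adjusted p = 1.06e-05).

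Against IL-2 + LDHi, the other group given the inhibitor, IL-21 + LDHi gave 3742 calls (26.1%), 1348 higher and 2394 lower. Of 20 memory and stem cell factors, 5 were higher (9.39% of all genes) and 4 lower (16.7%), with a median of 0.28. Of 24 naive and memory surface receptors, 8 were higher and 12 lower, with a median of -0.43. Tcf7 and Bcl6, among the factors that were higher, differed more than they did against no cytokine. Tcf7 was at 308 and 311 RPKM in IL-2 + LDHi and 594 and 573 RPKM in IL-21 + LDHi (log2 difference 1.10, SE 0.16, adjusted p = 0.000961). Bcl6 was at 2.01 and 2.03 RPKM in IL-2 + LDHi and at 10.8 RPKM in both IL-21 + LDHi libraries (2.59, SE 0.14, adjusted p = 1.32e-06). IL-21 + LDHi was the higher for both without overlap. Lef1 (0.45, SE 0.16, adjusted p = 0.0689) and Foxo1 (0.06, SE 0.11) did not pass the test. Of the cytokine genes, Cish was lower by 6.41 (SE 0.30) and Socs3 higher by 3.78 (SE 0.17). Bcl2 was lower in IL-21 + LDHi (-0.82, SE 0.16), and for Slamf6 (0.05, SE 0.12) and Ldhb (-0.01, SE 0.23) no difference was detectable at this spread.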

How the data were processed

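Read counts per transcript, as deposited, were the unit tested, and the authors' deposited tables also list RPKM beside them, which are used here for levels. Per the submitters' processing notes, Bowtie2 2.2.6, TopHat2 2.2.1, SAMtools 0.1.8, bedtools 2.25.0 and edgeR were used with the build mm10. The sources used here do not give the strand setting of the counting. Of 31682 transcripts, the one with most reads over all 10 libraries was kept for each of 23992 symbols. The 10 libraries in 5 groups of 2 entered one fit in edgeR 4.0.16 (R 4.3.3): genes kept by filterByExpr with at least 10 counts (15 in total), TMM scaling, a robust quasi-likelihood fit and two-sided tests, with a Benjamini-Hochberg threshold of 0.05 (common biological coefficient of variation 0.171).

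The fit was tested on simulated data for IL-21 + LDHi against no cytokine over 14043 genes. Of these, 66 were changed by 1.5-fold, 64 by 2-fold and 66 by 4-fold. The test called 10.6%, 34.4% and 89.4% of them, none with the wrong sign, and 7 of 95 calls were false. Far fewer genes changed there than were called in the data (5321 of 14357), which makes the adjusted p stricter in the simulation. The simulated counts also took the spread that the fit itself had estimated, and the same mean in every library for the unchanged genes. They cannot show whether the model suits these replicates. Those rates therefore do not carry over to the data, where smaller changes can still be missed.

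The members and the 34 gene lists (685 genes, 680 matched) were chosen with earlier results of these data known, and no list was given a test of its own. Genes are named if they are among the 12 that changed most each way (called, replicates of the groups not overlapping, at least 5 RPKM in the higher group, no predicted gene), among the 6 of each list with the smallest p, or on a fixed list. Btla, Camp, Ccne1, Cd27, Cd28, Cdk1, Cenpa, Cish, Ctsw, E2f2, Gzma, Id2, Ikzf1, Il12rb2, Il2rb, Il4, Jak3, Junb, Klf3, Ltf, Ly6c2, Mcl1, Mcm4, Mycn, Npm1, Pcna, Rb1, Retnlg, Runx3, Satb1, Slamf6, Socs2 and Wdr12 lie outside that rule and were chosen after their values were seen. Coordinates are RefSeq gene bounds on GRCm38.p6. Alternatives were RLE factors (with DESeq2 1.42.0 as another tool), library size alone, other filters, a replicate block, a minimum of 1.5-fold, the longest transcript, only the 2 groups compared, limma 3.58.1 on log2(RPKM + 1), and each library left out. Some genes are not reported here.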

Additional observations from a re-analysis of the deposited data

How the results depend on the processing

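Numbers of calls depended on the settings as follows, and the cause was not tested. With genes of at least 5 RPKM in 2 samples, which tests fewer genes, IL-21 + LDHi against no cytokine gave 2985 calls in place of 5321 (1216 higher, 1769 lower), IL-21 against no cytokine 1083 and IL-21 + LDHi against IL-21 2563. With a minimum of 1.5-fold it gave 2887 (543 higher), and the other comparisons 345, 2102 and, against IL-2 + LDHi, 1757. Fitted on only the 2 groups compared, 91 genes were called for IL-21 against no cytokine, 2259 for IL-21 + LDHi against IL-21 and 7352 against IL-2 + LDHi. With limma, 1094 genes were higher against no cytokine. With library size alone 1441 genes were higher and 3743 lower against no cytokine, and the median of all genes moved to -0.11. Leaving out each library in turn gave from 3538 (without IL-21 + LDHi replicate 1) to 6858 calls (without IL-21 replicate 2), 1077 to 2813 of them higher. The other 3 comparisons gave 749 (without no cytokine replicate 2) to 3967 (without IL-21 replicate 1), 2453 (without IL-21 + LDHi replicate 2) to 6660 (without IL-21 replicate 1), and, against IL-2 + LDHi, 2055 (its replicate 2 left out) to 5493 (without IL-21 replicate 2). A lone library was taken to vary like the other groups.

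Of the 238 genes named by the rule, 174 were called in every alternative and 37 lost a call in 1 or more (12 only with the minimum of 1.5-fold). No called gene reversed, and named genes without a call gave 18 changes of sign over the alternatives. The genes chosen after their values were seen are not in these counts.

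The labels give the groups the same replicate numbers. Deviations of same-numbered no cytokine and IL-21 + LDHi libraries were uncorrelated (-0.0142), while those of no cytokine and IL-21 libraries correlated at 0.483 and those of IL-21 and IL-21 + LDHi at 0.0382. The labels tie no number to a shared source, so no pairing was assumed. A fit with the replicate number as a block gave 5177 calls, and 1616 for IL-21 against no cytokine.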
